A study of Mus musculus with 4 samples.

Results

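The genes described here are the Wnt ligands, their Frizzled and Lrp receptors, the secreted antagonists of the sFRP and Dickkopf families, and a small set of intracellular and nuclear components of the same pathway. They were taken from the array annotation by name: every gene whose listed symbol begins with Wnt, Fzd, Sfrp, Dkk or Tcf7 followed by the member's number or letter, together with Axin1, Axin2, Lef1, Lrp5, Lrp6, Porcn, Ctnnb1, Nkd1 and Nkd2. This gave 49 of 27673 genes on the array, represented by 70 probes and 88 spots. Of these, 44 were bright enough to be tested. The other 5, Wnt2, Wnt2b, Wnt5a, Dkk2 and Dkk4, were too dim, since their signal cleared the background neither in both replicates of a treated group nor in all 4 reference channels.

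The cells were ZHBTc4 mouse embryonic stem cells, a single line in which the transcription factor Oct4 (gene Pou5f1) is shut down by doxycycline. Cells came off irradiated embryonic fibroblast feeders and were kept on gelatin for 2 passages. One group received 2 µg doxycycline for 48 h and is called dox here (its arrays are titled as the control). The other received doxycycline for 48 h and TCP, an agent the labels give by that abbreviation only and with no dose, and is called dox+TCP. Each group had 2 arrays, labelled as biological replicates, and every array carried treated RNA in Cy5 against RNA of ZHBTc4 cells with no treatment named in Cy3, so every ratio below is treated over reference and no dye swap separates dye from treatment. Both groups therefore share the line and the doxycycline, and both are read against the same kind of reference.

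Wnt proteins are secreted lipid-modified ligands. They bind a Frizzled receptor and an Lrp5 or Lrp6 co-receptor, which disables the complex of Axin, Apc and kinases that otherwise marks beta-catenin for destruction. Stabilised beta-catenin then enters the nucleus and acts with the DNA-binding factors of the TCF/LEF family. In mouse embryonic stem cells the pathway is known to favour self-renewal, largely by relieving repression by Tcf7l1.

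The labelled treatment could be read on the arrays. Pou5f1 had log2 ratios of -3.38 and -3.62 with dox and -3.29 and -3.28 with dox+TCP (adjusted p = 0.0105 and 0.0146 for the group means). Kdm1a, which encodes the LSD1 of the study's title, had means of 0.25 (adjusted p = 0.152) and 0.04 (adjusted p = 0.812). Of 11 pluripotency markers tested, all well above background in the reference on at least 1 array, 10 were lower with dox and 8 with dox+TCP. Of 12 trophoblast markers none passed, although their median log2 ratio was 1.77 with dox and 1.31 with dox+TCP. Those markers were brighter in the reference of replicate 2 than of replicate 1 in 12 of 12 cases, and the summed reference signal was 15.03 and 15.12 (log2) on the replicate 1 arrays against 17.69 and 17.81 on the replicate 2 arrays, with treated sums from 18.31 to 18.90. Of 15 markers of feeder fibroblasts, 3 were lower and none higher with dox, and 2 were lower and 1 higher with dox+TCP. All 15 were well above background on at least 1 array in both channels, and their summed signal ranged from 14.83 to 15.14 in the treated channels and from 14.50 to 15.05 in the reference. Of the markers of primitive endoderm 1 of 11 was higher and of mesoderm and primitive streak 1 of 8, in each comparison. These shares of 9.09% and 12.5%, and the 20% of the feeder list, stand beside 14.6% of all genes with dox and 15.4% with dox+TCP. In bulk RNA, fewer cells of a type and less RNA per cell cannot be told apart, and the part of these marker differences in the results below was not tested.

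With dox, Lef1, Sfrp1, Fzd10, Porcn, Wnt3a, Fzd5, Sfrp2, Sfrp4 and Fzd8 were lower than in the reference, and Lrp5, Nkd1, Fzd2 and Tcf7l2 higher. With dox+TCP, Lef1, Fzd10, Sfrp1, Porcn, Wnt3a, Fzd5, Axin2, Wnt10a, Wnt8a, Sfrp2, Fzd8 and Fzd4 were lower, and Lrp5 and Wnt9a higher. The lower genes thus included a ligand, the enzyme that modifies all ligands, several Frizzled receptors, sFRP antagonists and a nuclear effector. With dox, 13 of the 44 tested members (29.5%) differed from the reference at an adjusted p under 0.05, against 14.6% of all 21413 genes tested. Of these, 9 were lower and 4 higher, where 8.28% of all genes were lower and 6.32% higher. The members' median log2 ratio was -0.03 and that of all genes 0.00. With dox+TCP, 14 of 44 (31.8%) differed, 12 lower and 2 higher, against 15.4% of all genes (8.09% lower and 7.31% higher), and the median was -0.12 against 0.03. The comparisons share the reference, so their calls are not independent of each other. Adjusted p-values are those of limma with Benjamini-Hochberg adjustment over all genes tested, and ± marks the standard error of a group mean of 2 arrays.

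These counts come from a fit with the spread pooled over all 4 arrays. No member passed in either comparison with the reference (0 of 44) when local backgrounds were used as read. Fitted on its own arrays, the dox group had no member past the threshold, while the dox+TCP group had more than in the pooled fit. Leaving out dox+TCP replicate 1 or dox+TCP replicate 2 left 1 array in that group, with Lef1 at -2.41 or -3.46. Only dox+TCP replicate 2 was scanned on another day. A block for the scan day is therefore the same fit as leaving that array out, and it does not test the day apart from the array. Centring each array on its median, with no loess step, moved the median of all genes to 0.18 in both comparisons and gave 13 members higher and 9 lower with dox, and 9 higher and 9 lower with dox+TCP. The median of all genes thus shifted upward, though not every gene did. These counts are given without the share of all genes passing in that setting. They are not read as a result about the members.

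**Figure D1:**
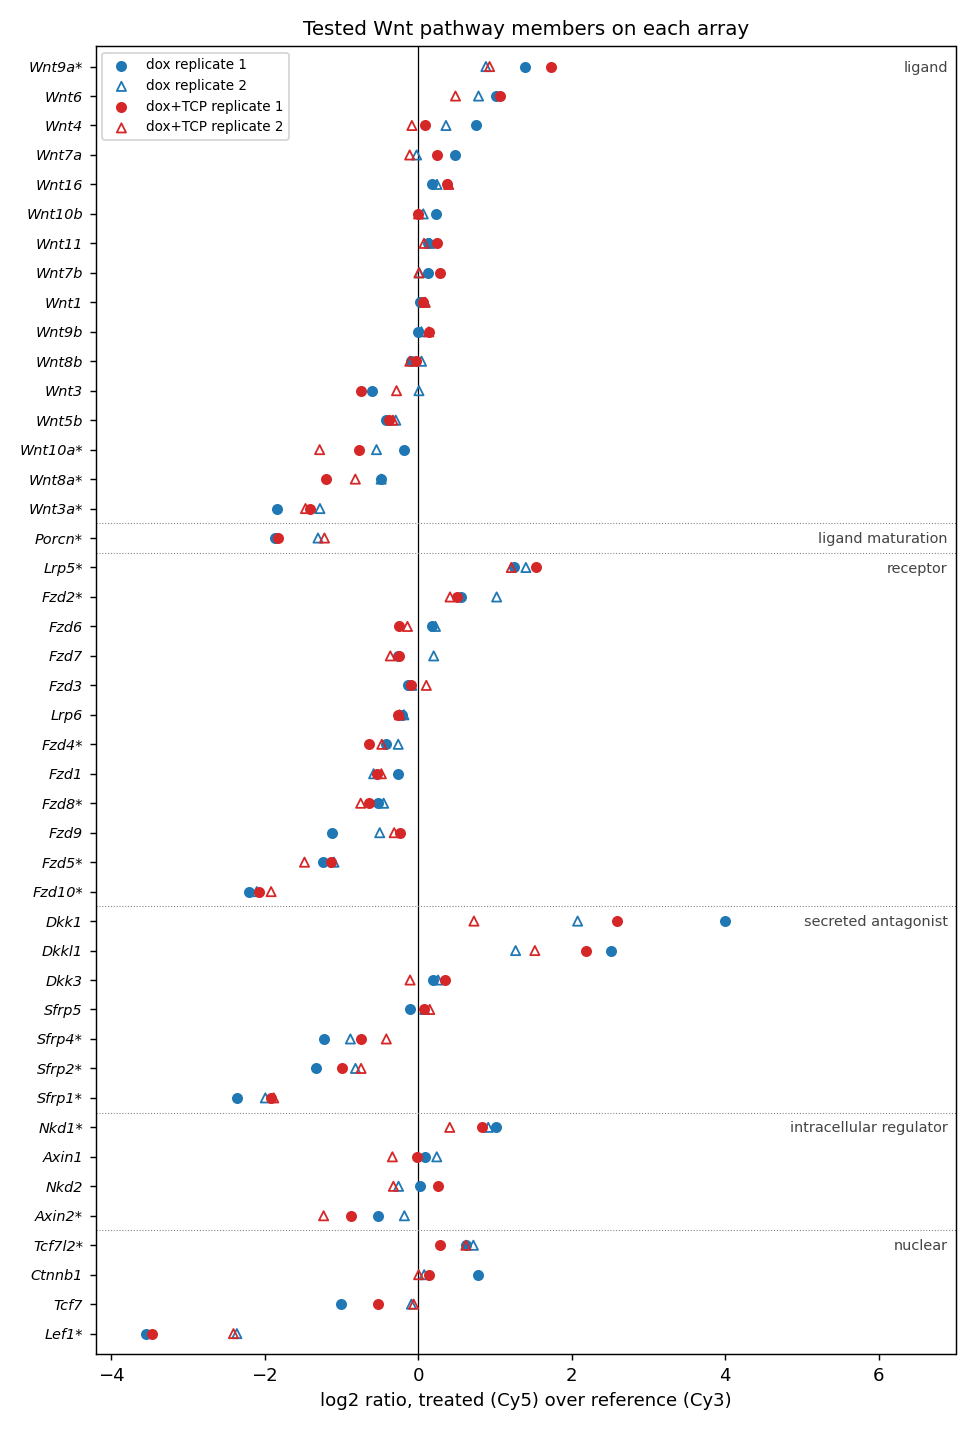
Log2 ratio of treated over reference signal (horizontal axis) of the 44 tested members, 1 row a gene, grouped by role and ordered by the dox mean; blue marks dox, red dox+TCP, filled circles replicate 1 and open triangles replicate 2, and an asterisk marks a gene past the threshold in either comparison with the reference. Lef1 lies farthest to the left on all 4 arrays, and the 4 values of Dkk1 spread from 0.73 to 3.99.

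RefSeq promoter windows (GRCm38.p6) were found for 33 of the 49 members, and the 250 bases upstream of each annotated start, 42 windows in all, were searched on both strands for a TCF/LEF core, ACAAAG or TCAAAG, and for the octamer ATGCAAAT that Oct4 can bind. No search string overlaps the other. The TCF/LEF core was in 9 of the 42 windows (21.4%), each of a different gene, and in 27.6% of all 32851 windows of that length. The octamer was in 1 of the 42 (2.38%) and in 1.6% of all windows. A match is only a match of letters. Windows of Lef1 and Dkk1, the members with the lowest and the highest mean ratio with dox, hold 3 TCF/LEF cores each, Sfrp2 holds the octamer, and Fzd10, the receptor with the largest loss, is shown as a window with neither. Capitals mark the matches and sequences run 5′ to 3′ on the gene's strand.
Lef1, the fourth of 4 annotated starts, chr3:131156044-131156293, plus strand: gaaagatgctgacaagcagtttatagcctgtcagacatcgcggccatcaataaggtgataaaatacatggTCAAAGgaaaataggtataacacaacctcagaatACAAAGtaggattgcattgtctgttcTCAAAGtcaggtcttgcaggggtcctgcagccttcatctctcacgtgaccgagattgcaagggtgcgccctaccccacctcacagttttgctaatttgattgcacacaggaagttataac
Dkk1, chr19:30549497-30549746, minus strand: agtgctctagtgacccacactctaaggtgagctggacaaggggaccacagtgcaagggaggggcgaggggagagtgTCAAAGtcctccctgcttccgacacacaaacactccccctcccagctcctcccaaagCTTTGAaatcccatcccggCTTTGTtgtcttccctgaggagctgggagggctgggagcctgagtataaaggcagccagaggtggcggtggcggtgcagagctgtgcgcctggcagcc
Sfrp2, chr3:83766071-83766320, plus strand: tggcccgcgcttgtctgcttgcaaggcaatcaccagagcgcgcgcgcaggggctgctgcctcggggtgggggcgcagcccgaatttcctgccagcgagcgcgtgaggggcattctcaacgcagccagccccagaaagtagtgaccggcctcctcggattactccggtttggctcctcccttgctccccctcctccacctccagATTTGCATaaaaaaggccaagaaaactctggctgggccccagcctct
Fzd10, chr5:128600856-128601105, plus strand: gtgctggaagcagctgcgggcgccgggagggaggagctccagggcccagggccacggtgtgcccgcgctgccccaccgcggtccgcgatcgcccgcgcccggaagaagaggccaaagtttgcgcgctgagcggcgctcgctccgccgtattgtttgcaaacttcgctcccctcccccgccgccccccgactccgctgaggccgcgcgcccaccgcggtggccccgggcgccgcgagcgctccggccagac

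In the Lef1 window the matches begin 180, 146 and 120 bases upstream of the start, and in the Dkk1 window 174, 117 and 98 bases upstream. The Lef1 window belongs to an internal start, and the windows of the other 3 Lef1 starts held no match. The Sfrp2 octamer begins 47 bases upstream and reads on the opposite strand. The Fzd10 window is 76.4% G or C and the Lef1 window 44.8%.

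Among the ligands, 16 of 19 Wnt genes on the array were tested. With dox 1 was lower and none higher, and with dox+TCP 3 were lower and 1 higher. These are 6.25% and 25% of the tested ligands, against 14.6% and 15.4% of all genes. The ligand that fell in both comparisons was Wnt3a, a canonical ligand often added to stem cell cultures. Its log2 ratios were -1.84 and -1.28 with dox and -1.41 and -1.47 with dox+TCP. All 4 arrays lay below -1, and the groups overlapped. The means were -1.56 ± 0.16 with dox (adjusted p = 0.0210) and -1.44 ± 0.16 with dox+TCP (adjusted p = 0.0229), a 2.94-fold and a 2.71-fold loss. The treated levels were low, from 6.483 to 7.045 (log2), though flagged well above background on all 4 arrays. With the scanner's own ratios the means were -2.61 and -2.03, and with local backgrounds as read -0.62 and -0.205. The size of the loss is thus uncertain.

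Wnt8a and Wnt10a, both canonical ligands, passed with dox+TCP and not with dox. Wnt8a read -0.49 and -0.48 with dox (mean -0.48 ± 0.12, adjusted p = 0.0853) and -1.20 and -0.82 with dox+TCP (mean -1.01 ± 0.12, adjusted p = 0.0252). Its signal was not well above background on either dox+TCP array, so the 2.01-fold loss there was read near background and its size is uncertain. With local backgrounds as read the dox+TCP mean of Wnt8a was -0.08. Wnt10a read -0.18 and -0.54 with dox (mean -0.36 ± 0.18, adjusted p = 0.264) and -0.77 and -1.28 with dox+TCP (mean -1.03 ± 0.18, adjusted p = 0.0412). For both genes the dox+TCP arrays lay below the dox arrays, but the test of dox+TCP against dox called neither. With arrays centred on the median, the Wnt10a mean with dox was 0.08, and with dox+TCP it was -0.74 and no longer passed.

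Wnt9a was the ligand that rose, and only by 1 of its 2 tested probes. The brighter probe read 1.39 and 0.88 with dox (mean 1.14 ± 0.25, adjusted p = 0.0663) and 1.73 and 0.93 with dox+TCP (mean 1.33 ± 0.25, adjusted p = 0.0489). Its second tested probe read 0.15, 0.04, 0.10 and 0.17 on the same arrays. That probe was dim, well above background in the reference on 2 of 4 arrays, so it says little about a rise. Wnt6 came close to the threshold in both comparisons. Its ratios were 1.01 and 0.79 with dox and 1.07 and 0.49 with dox+TCP, and neither mean passed (0.90 ± 0.18, adjusted p = 0.0527, and 0.78 ± 0.18, adjusted p = 0.0667).

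Wnt3, which is required for gastrulation, did not pass. It read -0.60 and 0.01 with dox and -0.74 and -0.28 with dox+TCP, with the replicate 1 arrays lower in both groups. The other 10 tested ligands had means between -0.36 (Wnt5b) and 0.56 (Wnt4) with dox, and between -0.35 (Wnt5b) and 0.39 (Wnt16) with dox+TCP, and none passed. Among these Wnt10b and Wnt16 were close to background, with Wnt10b well above it on 2 of 4 treated channels and 1 of 4 reference channels.

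Porcn, the membrane acyltransferase that puts the lipid on Wnt proteins, was lower in both groups. It read -1.86 and -1.30 with dox and -1.82 and -1.22 with dox+TCP, again with the larger loss on the replicate 1 arrays. The means were -1.58 ± 0.22 (adjusted p = 0.0312) and -1.52 ± 0.22 (adjusted p = 0.0320). Wls, the carrier that takes the lipid-modified ligands to the cell surface, moved the other way, with means of 1.68 (adjusted p = 0.0164) and 1.82 (adjusted p = 0.0169).

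All 12 receptor genes were tested. With dox 3 were lower and 2 higher, and with dox+TCP 4 were lower and 1 higher. That is 41.7% of the receptors in each comparison, against 14.6% and 15.4% of all genes. The largest loss was that of Fzd10 (probe at chr5:127839139-127839198, mm7), which read -2.20 and -2.10 with dox and -2.07 and -1.92 with dox+TCP. The 4 values lay close together, with the dox pair just below the dox+TCP pair. The means were -2.15 ± 0.09 with dox (4.44-fold lower, adjusted p = 0.0117) and -1.99 ± 0.09 with dox+TCP (3.98-fold lower, adjusted p = 0.0159). A second Fzd10 probe for the same transcript fell less far, at -1.18 and -0.73 with dox and -0.93 and -0.78 with dox+TCP.

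Fzd5 and Fzd8 are close relatives in sequence, and both were lower in both groups. Fzd5 read -1.24 and -1.10 with dox and -1.14 and -1.48 with dox+TCP, with means of -1.17 ± 0.12 (adjusted p = 0.0208) and -1.31 ± 0.12 (adjusted p = 0.0186). Fzd8 read -0.52 and -0.45 with dox and -0.64 and -0.75 with dox+TCP, with means of -0.48 ± 0.08 (adjusted p = 0.0408) and -0.69 ± 0.08 (adjusted p = 0.0245). The Fzd8 change was thus smaller than the Fzd5 change in both groups, and with median centring the dox value of Fzd8 (-0.35) no longer passed. Fzd4 read -0.42 and -0.26 with dox and -0.64 and -0.47 with dox+TCP, and passed with dox+TCP (mean -0.56 ± 0.10, adjusted p = 0.0415) and not with dox (mean -0.34 ± 0.10, adjusted p = 0.103).

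The co-receptors differed. Lrp5 (probe at chr19:3479676-3479736, mm7) rose, with ratios of 1.25 and 1.40 with dox and 1.54 and 1.21 with dox+TCP. The means were 1.32 ± 0.12 (2.50-fold, adjusted p = 0.0182) and 1.38 ± 0.12 (2.60-fold, adjusted p = 0.0182). Lrp6, its close relative, read -0.22 and -0.19 with dox and -0.26 and -0.24 with dox+TCP, a small shift of one sign on all 4 arrays that did not pass (adjusted p = 0.172 and 0.113). Fzd2 rose with dox, at 0.56 and 1.02 (mean 0.79 ± 0.14, adjusted p = 0.0448), and read 0.51 and 0.42 with dox+TCP (mean 0.46 ± 0.14, adjusted p = 0.117).

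Fzd7, a Frizzled linked to stem cell self-renewal, gave no settled direction. Its brightest probe read -0.26 and 0.20 with dox and -0.25 and -0.36 with dox+TCP, and its second probe 0.29, 0.47, 0.24 and 0.20, above 0 on all arrays. The remaining receptors, Fzd1, Fzd3, Fzd6 and Fzd9, did not pass in either comparison. Fzd9 came nearest with dox, at -1.12 and -0.50 (mean -0.81 ± 0.18, adjusted p = 0.0638), and read -0.24 and -0.31 with dox+TCP.

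**Figure D2:**
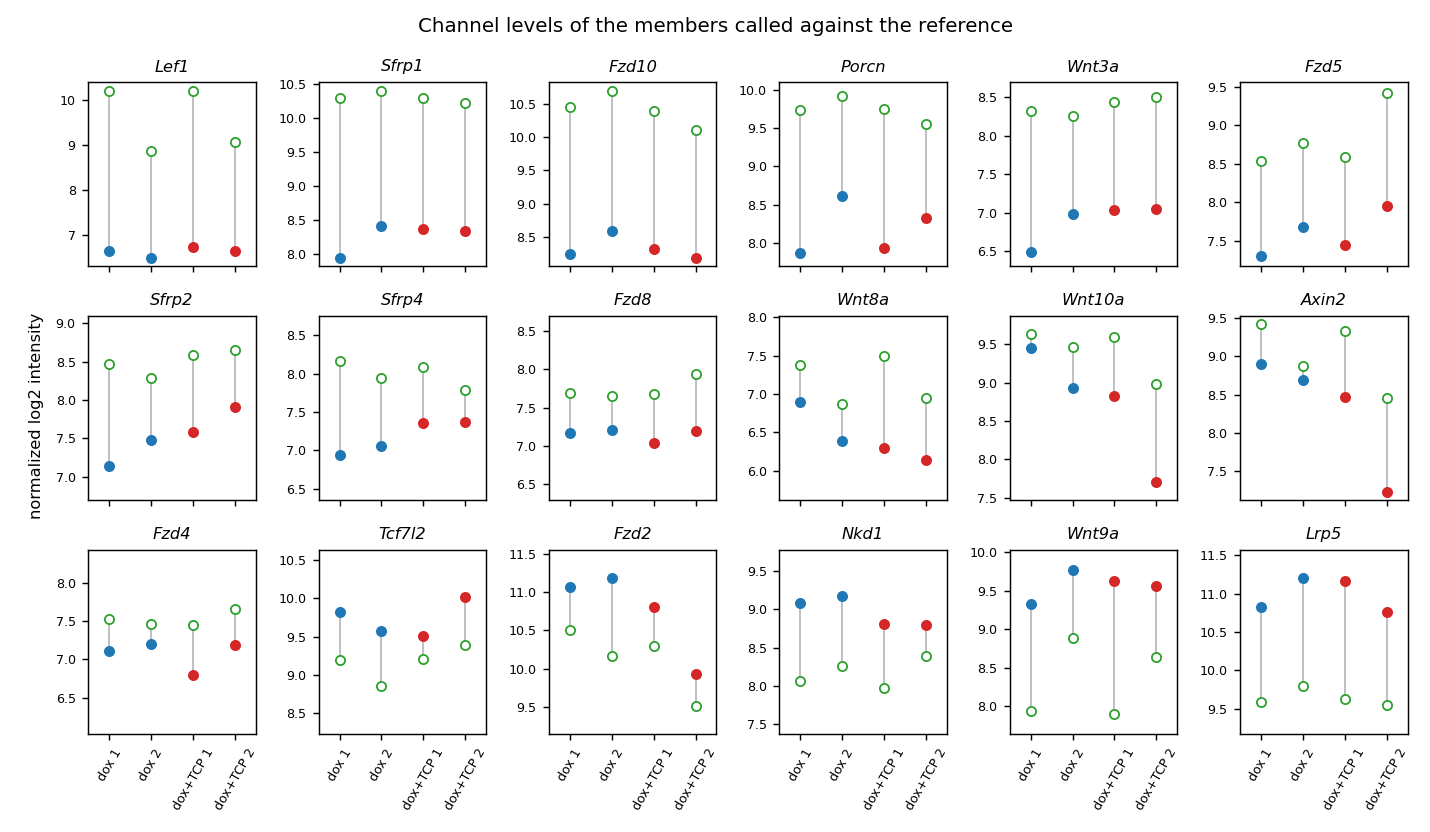
Normalized log2 intensity (vertical axis) of the 18 members past the threshold in either comparison with the reference, 1 panel a gene, for the 4 arrays along the horizontal axis; open green circles are the reference (Cy3), blue the dox and red the dox+TCP RNA (Cy5), joined by a grey line within an array. For Lef1 the treated levels lie between 6.50 and 6.74 while the reference ranges from 8.86 to 10.20.

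Of 9 genes grouped by name (Sfrp or Dkk) as secreted antagonists, 7 were tested, and 3 were lower with dox and 2 with dox+TCP, with none higher. These are 42.9% and 28.6% of a small group, against 14.6% and 15.4% of all genes. The sFRP proteins bind Wnt ligands outside the cell. Sfrp1 (probe at chr8:22232957-22233016, mm7) read -2.35 and -1.99 with dox and -1.92 and -1.88 with dox+TCP, the second largest loss among the members with dox. Its means were -2.17 ± 0.12 (4.51-fold lower, adjusted p = 0.0139) and -1.90 ± 0.12 (3.73-fold lower, adjusted p = 0.0165). A second, dim Sfrp1 probe read -0.47 and -0.34 with dox and -0.50 and -0.34 with dox+TCP.

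Sfrp2 read -1.33 and -0.82 with dox and -0.997 and -0.743 with dox+TCP, with means of -1.07 ± 0.17 (adjusted p = 0.0350) and -0.87 ± 0.17 (adjusted p = 0.0487). The groups overlapped, and with median centring the dox+TCP value (-0.61) did not pass. Sfrp4 read -1.23 and -0.88 with dox (mean -1.05 ± 0.14, adjusted p = 0.0296) and -0.74 and -0.41 with dox+TCP (mean -0.58 ± 0.14, adjusted p = 0.0783). Sfrp5, the remaining member of that family, read between -0.10 and 0.15 and did not pass.

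Dkk1, of the Dickkopf family, binds the Lrp co-receptors and is both an antagonist and a known target of the pathway. Dkk1 (probe at chr19:30246086-30246145, mm7) had the largest positive ratios of any member, and also the widest spread. They were 3.99 and 2.08 with dox and 2.59 and 0.73 with dox+TCP. All 4 were above 0, with replicate 1 well above replicate 2 in each group and the groups overlapping. Neither mean passed (3.04 ± 0.69, adjusted p = 0.0687, and 1.66 ± 0.69, adjusted p = 0.201). The dox mean did pass with the scanner's own ratios (3.62, adjusted p = 0.0368) and with median centring (3.502, adjusted p = 0.0202). Part of the gap between replicates lay in the reference, at 7.70 and 7.60 (log2) on the replicate 1 arrays and 8.57 and 8.51 on the replicate 2 arrays, and part in the treated channel, at 11.70 and 10.65 with dox and 10.19 and 9.23 with dox+TCP. A second Dkk1 probe read 1.78 and 0.46 with dox and 0.32 and -0.13 with dox+TCP.

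Dkkl1, a Dickkopf-like gene known from the testis and from trophoblast, read 2.51 and 1.27 with dox and 2.19 and 1.52 with dox+TCP, and its means did not pass by a narrow margin (1.89 ± 0.37, adjusted p = 0.0525, and 1.86 ± 0.37, adjusted p = 0.0527). Its treated level hardly differed between replicates, from 12.38 to 12.82. Its reference was 10.31 and 10.19 on the replicate 1 arrays and 11.55 and 11.25 on the replicate 2 arrays, moving the same way as the trophoblast markers. Dkk3 read between -0.10 and 0.35 and did not pass.

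The largest loss of all members was that of Lef1 (probe at chr3:131060609-131060668, mm7), the TCF/LEF factor that is itself a known target of the pathway. It read -3.54 and -2.36 with dox and -3.46 and -2.41 with dox+TCP, so that the replicates differed within each group by far more than the group means differed from each other. The means were -2.95 ± 0.41 with dox (7.73-fold lower, adjusted p = 0.0308) and -2.93 ± 0.41 with dox+TCP (7.64-fold lower, adjusted p = 0.0299). The treated level was nearly the same on every array, between 6.50 and 6.74 (log2). It was flagged well above background on all 4 but lay close to it. The reference was 10.20 on both replicate 1 arrays and 8.86 and 9.06 on the replicate 2 arrays. With the treated level this low, the difference between replicates was read in the reference channel. A second tested Lef1 probe, for the RefSeq transcript, read -1.59 and -0.53 with dox and -1.66 and -0.62 with dox+TCP, and the third probe was too dim to test. The second probe had treated levels from 6.52 to 6.76, and its 6.52 on dox+TCP replicate 2 was not well above background. The size of the Lef1 loss and its difference between the groups were thus read close to background.

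Tcf7, the close relative of Lef1, read -1.002 and -0.087 with dox and -0.52 and -0.06 with dox+TCP and did not pass (means -0.54 ± 0.27, adjusted p = 0.275, and -0.29 ± 0.27, adjusted p = 0.531). Tcf7l2 read 0.62 and 0.72 with dox (mean 0.67 ± 0.12, adjusted p = 0.0421) and 0.29 and 0.62 with dox+TCP (mean 0.46 ± 0.12, adjusted p = 0.0825). That call rests on 1 of 3 tested probes, since the mean ratios of the other two were 0.00 and 0.07 with dox. Tcf7l1, listed on the array under its older name Tcf3 and so not taken by the name rule, had means of 0.08 (adjusted p = 0.830) with dox and -0.23 (adjusted p = 0.4995) with dox+TCP.

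Ctnnb1, which encodes beta-catenin, did not pass in either comparison. It read 0.78 and 0.08 with dox and 0.15 and 0.01 with dox+TCP, with a mean of 0.43 ± 0.20 with dox (adjusted p = 0.242), and its 3 probes ranged from 0.15 to 0.45 in that group. With dox+TCP the probe means differed in sign, at 0.08, -0.30 and 0.56. With median centring its means were 1.16 (adjusted p = 0.0103) and 0.62 (adjusted p = 0.0461). RNA levels of Ctnnb1 say nothing about the stability of the protein.

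**Figure D3:**
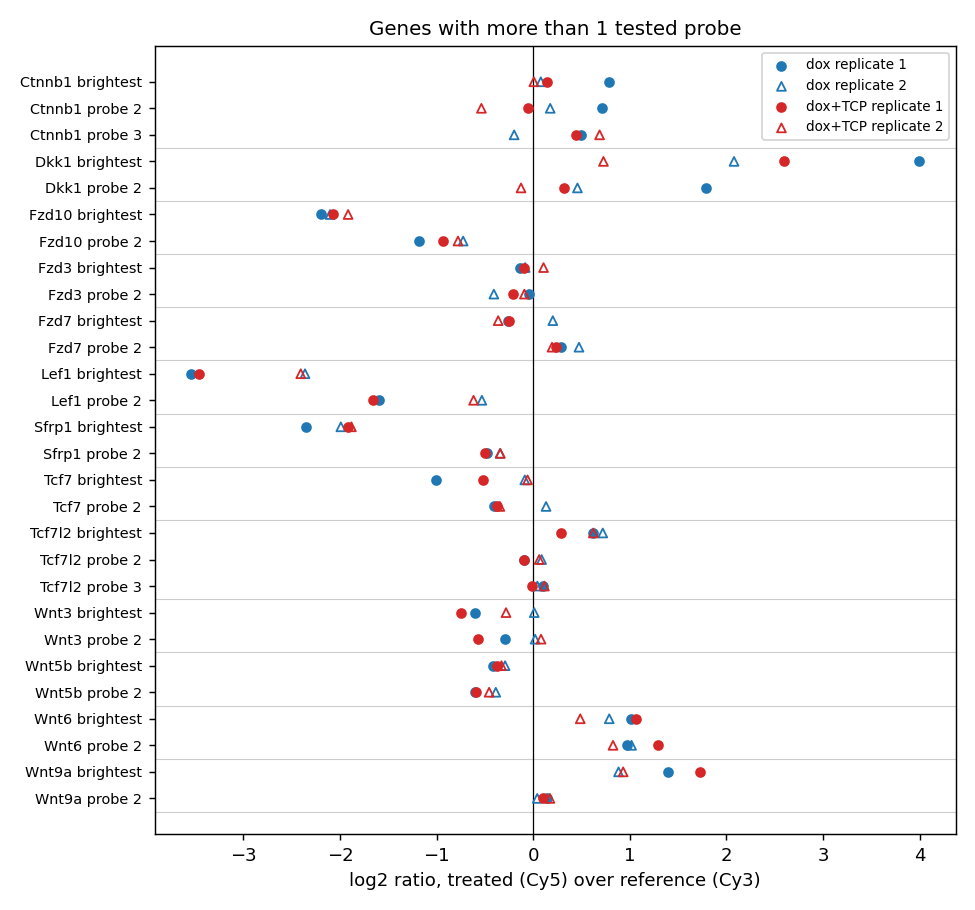
Log2 ratio of treated over reference signal (horizontal axis) for the 13 members with more than 1 tested probe, 1 row a probe, with the probe that stands for the gene on top; blue marks dox, red dox+TCP, filled circles replicate 1 and open triangles replicate 2. The second probes of Lef1, Dkk1, Fzd10 and Sfrp1 lie on the same side of 0 on the dox arrays but nearer to it, and the second probes of Tcf7l2 and Wnt9a lie close to 0.

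Axin2 is both a scaffold of the destruction complex and a widely used readout of the pathway. Its probe (chr11:109059707-109059766, mm7) read -0.52 and -0.18 with dox and -0.87 and -1.23 with dox+TCP. The mean was -0.35 ± 0.15 with dox and did not pass (adjusted p = 0.211, and 0.06 with median centring), while with dox+TCP it was -1.05 ± 0.15 (2.07-fold lower, adjusted p = 0.0299). The reference level of Axin2 was 9.42 and 9.34 on the replicate 1 arrays and 8.87 and 8.46 on the replicate 2 arrays. Nkd1, an inhibitor that binds Dishevelled and is often induced by Wnt signalling, read 1.01 and 0.91 with dox (mean 0.96 ± 0.13, adjusted p = 0.0305) and 0.83 and 0.41 with dox+TCP (mean 0.62 ± 0.13, adjusted p = 0.0604). Axin1 and Nkd2 did not pass in either comparison.

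The effect of TCP was read as dox+TCP against dox. No member passed (0 of 44, lowest adjusted p = 0.996 by limma), as no gene did among all 21413 (0%). At an unadjusted p under 0.05 by limma there were 4 of 44 members and 943 of all 21413 genes. These 4 were Axin2, Fzd6, Wnt8a and Wnt4, each lower with TCP. They were picked by that p-value, so their intervals below leave out 0 by the choice and do not set them apart. The Axin2 difference was -0.70 with a 95% interval from -1.29 to -0.11, and was -0.35 on the slide that held both replicate 1 arrays and -1.05 between the replicate 2 arrays. The Fzd6 difference was -0.40 (interval -0.72 to -0.07), as both dox arrays were above 0 and both dox+TCP arrays below. The Wnt4 difference was -0.56 (interval -1.09 to -0.03). The Wnt8a difference was -0.525 (interval -1.02 to -0.03). Wnt8a was well above background on 1 of 2 dox arrays and on neither dox+TCP array, so the size of its difference is uncertain.

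The precision of that comparison differed much between members. The 95% interval reached a median of 0.51 to either side of the difference over the tested members. For Fzd10 the interval was -0.20 to 0.51 and for Lrp5 -0.43 to 0.53. For Lef1 it was -1.64 to 1.68 and for Dkk1 -4.15 to 1.39, in a fit whose spread includes the gap between replicates. Taken within a replicate number, the Lef1 difference was 0.08 on the shared slide and -0.04 between the replicate 2 arrays, and the Dkk1 difference -1.40 and -1.35. The Lef1 values set treated levels close to background against each other.

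The reference channel itself differed between the replicate pairs. Over the 44 tested members it was brighter on the replicate 2 arrays for 25 (56.8%), with a median difference of 0.04 (log2), and over all genes for 57.8%, with a median of 0.06. The extreme members were Lef1 (-1.24), Axin2 (-0.71), Wnt3 (-0.61) and Fzd2 (-0.57) on one side and Dkkl1 (1.15), Dkk1 (0.89), Wnt9a (0.84) and Fzd5 (0.54) on the other. The ratio did not follow the reference for each of these genes. For Lef1 the treated level was nearly the same on every array and the ratio differed with the reference. For Fzd2 with dox+TCP the reference was 10.30 and 9.52 and the treated level 10.81 and 9.93, so the ratios were 0.51 and 0.42. For Axin2 with dox+TCP the reference was lower on replicate 2, and so was the ratio (-0.87 and -1.23). The part of the reference difference in the results was not tested.

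**Figure D4:**
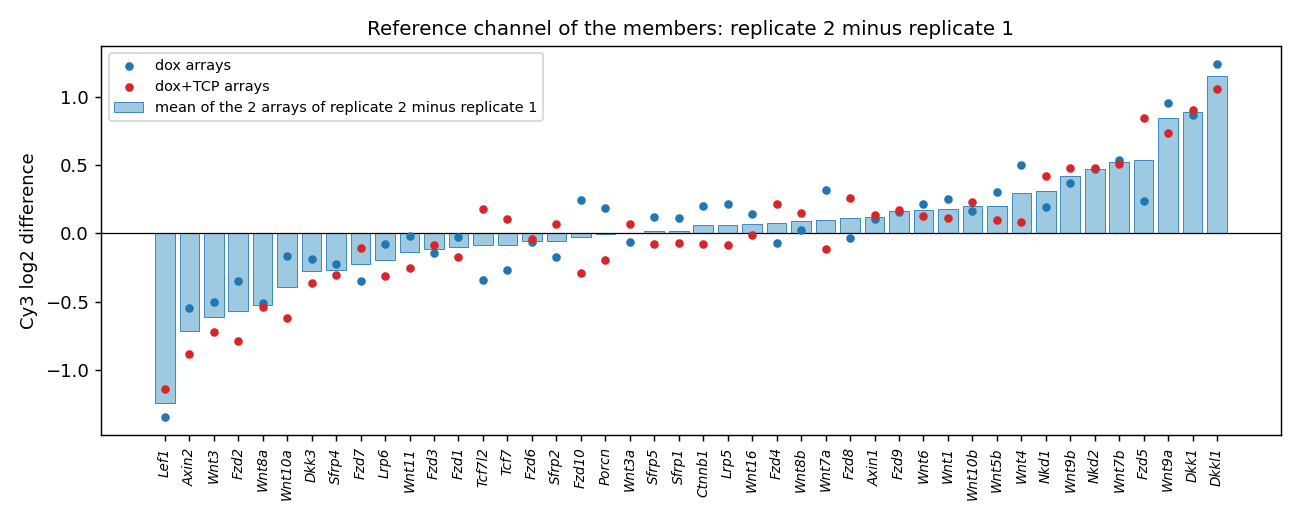
Difference in normalized reference (Cy3) log2 intensity, replicate 2 minus replicate 1 (vertical axis), for each tested member along the horizontal axis; bars are the mean over both groups, blue points the dox arrays and red points the dox+TCP arrays. Lef1 at -1.24 and Dkkl1 at 1.15 are the extremes, and both groups show the same sign for each of them.

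The rest of the pathway was read from lists of genes that the name rule does not take. Of 20 tested genes for Wnt secretion and surface modulation, 2 were higher and 4 lower in each comparison, with medians of 0.05 with dox and 0.00 with dox+TCP. That is 30% of the list, against 14.6% and 15.4% of all genes. Besides Wls, the ubiquitin ligase gene Rnf43, which removes Frizzled from the surface, was higher (mean 1.64 with dox, adjusted p = 0.0152, and 1.54 with dox+TCP, adjusted p = 0.0170). Rspo1 and Lgr4, a ligand and receptor that oppose Rnf43, were lower, Rspo1 at -2.24 and -1.90 and Lgr4 at -1.38 and -1.03. The glypican Gpc4 (-0.79 and -0.86) and Notum, a secreted enzyme that strips the lipid from Wnt (-0.57 and -0.67), were also lower.

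Of 23 tested genes of the destruction complex and signal transduction, 4 were higher with dox and 3 with dox+TCP, and none was lower. These are 17.4% and 13% of the list, near the 14.6% and 15.4% of all genes called. The medians were 0.34 and 0.30, against 0.00 and 0.03 for all genes. Csnk1a1, the kinase that primes beta-catenin for degradation, had means of 0.93 and 1.34, and Btrc, the ubiquitin ligase adaptor that recognises it, 0.96 and 1.03, and all of these passed. Dvl1 (0.81) and Fbxw11 (0.58) passed with dox and Dact2 (0.84) with dox+TCP. Of 21 nuclear partners, 2 were higher and 1 lower in each comparison, 14.3% of the list and so near the share of all genes. The genes called were Tbl1x (1.24 and 1.51), Tle1 (0.91 and 0.92) and the co-repressor gene Tle4 (-1.99 and -2.18).

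Of 30 tested genes reported elsewhere as transcriptional targets of the pathway, 3 were higher and 7 lower with dox, and 5 higher and 7 lower with dox+TCP. These are 33.3% and 40% of the list, against 14.6% and 15.4% of all genes. The medians were -0.06 and -0.13. Sp5, a direct target in embryonic stem cells, fell in both (-1.41, adjusted p = 0.0360, and -1.55, adjusted p = 0.0306), as did Ccnd1 (-2.13 and -1.75), Gbx2 (-3.28 and -3.19), Nodal (-2.61 and -2.17), Esrrb (-2.72 and -2.49) and Bmp4 (-1.29 and -1.26). Esrrb is also 1 of the pluripotency markers counted above. Tbx6 (0.96 and 1.25), Msx2 (2.21 and 1.89) and Vegfa (1.05 and 1.73) were higher in both. Tbx6 is also the mesoderm and primitive streak marker counted as higher above. Fosl1 was lower with dox (-0.53), and Myc (-1.70) was lower and Id2 (0.97) and Klf2 (1.06) higher with dox+TCP. The list thus held genes that moved in both directions.

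**Figure D5:**
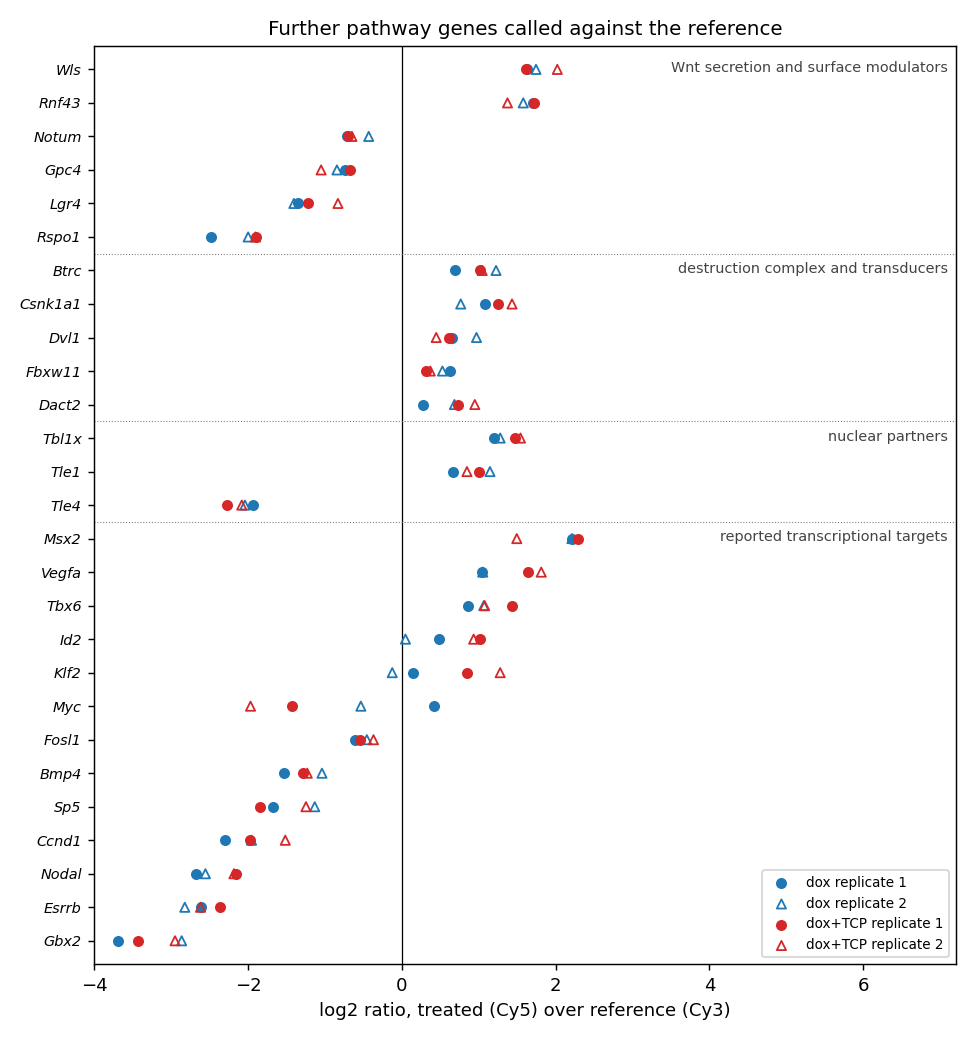
Log2 ratio of treated over reference signal (horizontal axis) of the genes of 4 further pathway lists that passed in either comparison with the reference, 1 row a gene, grouped by list; blue marks dox, red dox+TCP, filled circles replicate 1 and open triangles replicate 2. The 5 genes of the destruction complex and transducers lie above 0 on all 4 arrays, and Gbx2 is the lowest of the reported targets with dox at -3.28 on average.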

How the data were processed

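The data are 4 Agilent arrays with 2 colours and 45018 spots each, 1639 of them controls. Spot and local background intensities are linear and, per the file headers, came from Agilent Feature Extraction 10.1.1.1 with mm7 positions. The deposited log10 ratios, dye-normalized per the file headers, matched the series matrix within 0.005 and served as an alternative. Flags for signal well above background were read from the same files as deposited. No other step by the authors is given in the sources used here.

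Signals were corrected with normexp (offset 50), a local background above 2 times the median of its channel being set to that median, and loess-normalized within arrays in limma 3.58.1 under R 4.3.3. Spots with outlier flags, 119 to 176 an array, were dropped. The test took probes clearly above background (by the scanner's flag) in Cy5 on both arrays of at least 1 group, or in Cy3 on all 4 arrays, and a gene was read from its brightest tested probe. One mean per group was fitted over all 4 arrays (2 residual and 1.79 prior degrees of freedom) at an adjusted p of 0.05. A ratio tested against 0 leaves out the reference's own spread. Channel levels were scaled between arrays by the mean of both channels (Aquantile).

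Between 68.8% and 78.1% of spots were well above background per channel and 0 were saturated, and the number of arrays limits the precision. dox 1 and dox+TCP 1 shared a slide, and dox+TCP 2 was scanned on another day than the other 3. Symbols were updated by a GRCm38.p6 table, from which only names were taken (22951 probes by accession, 6659 by symbol and 3109 by synonym, with 8455 left as listed). Another 3 probes that this table gives a member's symbol were left out.

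The members, the gene lists, the background limit and the choice of named genes were made with earlier results of these data known. Named with array values were all members past the threshold and Lef1, Tcf7, Tcf7l1, Tcf7l2, Axin2, Ctnnb1, Lrp6, Porcn, Dkk1, Wnt3, Wnt3a, Fzd5, Fzd7 and Sfrp1. Other members were singled out after their values were seen. The steps were tested on simulated data.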

Additional observations from a re-analysis of the deposited data

How the results depend on the processing

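The results were recomputed under 18 alternatives, and no change of a named gene that had passed turned its sign in any of them. Over 25 named genes, 1322 values were recomputed, of which 140 no longer passed, 28 newly passed and 48 changed sign with no call on either side. The counts of members called against the reference, 13 with dox and 14 with dox+TCP, fell to 0 and 0 with local backgrounds as read (1 member each at an unadjusted p under 0.05 by limma). The scan day as a block gave the same fit as leaving out dox+TCP replicate 2, the only array of its day. The day was thus not tested apart from that array. Median centring gave 22 with dox and 18 with dox+TCP. In a fit of each group's own 2 arrays they were 0 with dox (20 unadjusted) and 19 with dox+TCP. Leaving out 1 array gave 0 to 11 with dox, 0 to 19 with dox+TCP and 0 to 0 for dox+TCP against dox. The counts of 0 came from leaving out dox+TCP replicate 1 or dox+TCP replicate 2 (20 and 20 unadjusted with dox, 13 and 18 with dox+TCP). With the replicate number as a block the counts were 19, 20 and 0 (7 unadjusted for the last), and Dkk1 passed against the reference with dox (adjusted p = 0.00884) and dox+TCP (adjusted p = 0.0119) but not in dox+TCP against dox (adjusted p = 0.655). Deviations of same-numbered arrays correlated at r = 0.47 over genes, but only 2 pairs exist and the labels give the numbers no further meaning. The limit of 10 times the median for backgrounds was chosen after seeing the data and left the counts at 13 and 14. A random block for the slide was not run, since no correlation could be estimated from 4 arrays. The size of the Lef1 change with dox ranged from -4.19 to -1.21 over the alternatives. The member counts under the alternatives are given without the share of all genes passing in the same setting, so they describe the settings and not the members. The cause of these differences was not tested.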
